A study of Homo sapiens with 6 samples.

Results

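The 10 genes described here are TNFAIP3, TNFAIP2, TNIP1, TNIP2, TRAF1, TRAF2, BIRC2, BIRC3, CYLD and CFLAR, which encode feedback regulators and survival factors of the NF-κB pathway. They were chosen by name, out of 47432 genes listed in each table, and each of them was found. RNA was sequenced from LOX-IMVI, a long-established cell line from a human melanoma that makes IκBζ, the nuclear co-regulator encoded by NFKBIZ, without added stimulus. All cells carried a lentiviral pLKO.1 short hairpin RNA (shRNA) vector and were selected with puromycin. The vector held either a control (shCtrl) or an NFKBIZ-directed hairpin (shNFKBIZ), with 3 libraries per group and 1 hairpin per group. Effects of the lost target and of the particular hairpin therefore cannot be told apart. The study describes replicates as independent experiments, while the sample labels give only replicate numbers.

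NF-κB dimers are released in the cytoplasm when the IκB proteins that hold them are degraded, and they then induce genes that shut the same pathway down. A20, encoded by TNFAIP3, edits ubiquitin chains on receptor complexes. The adaptors ABIN-1 and ABIN-2, encoded by TNIP1 and TNIP2, bind ubiquitin and A20, and CYLD removes ubiquitin chains from several components of the pathway. At the tumour necrosis factor (TNF) receptor, TRAF2 recruits the ubiquitin ligases cIAP1 and cIAP2, encoded by BIRC2 and BIRC3. TRAF1 lacks the RING domain that TRAF2 has and pairs with it. CFLAR encodes c-FLIP, which restrains caspase-8, so that TRAF, IAP and c-FLIP proteins are known for keeping cells alive under TNF. TNFAIP2 was found as a TNF-induced gene and is linked to vesicle transport and membrane protrusions.

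Each library held 22264473 to 24624839 total exon reads. The targeted gene was lower in shNFKBIZ cells, since NFKBIZ was at 41.4, 42.9 and 49.2 TPM in the shCtrl libraries and at 13.7, 14.1 and 13.3 TPM in the shNFKBIZ libraries, a 3.43-fold lower expression in the edgeR fit (adjusted p = 7.20e-17). TPM, a unit of transcript abundance, is a read count divided by exon length and scaled to the same total in each library. The exon length is that of all annotated exons of a gene together, such as 22478 bases for CFLAR and 2652 for TNIP2. Levels of different genes therefore depend in part on the annotation. Of 7 melanocyte markers, only MITF had a mean of at least 1 TPM, and SOX10 and MLANA had no exon read in any library. The summed level of the melanocyte list was 3.19 to 4.23 TPM in shCtrl and 1.79 to 2.62 TPM in shNFKBIZ libraries, with MITF lower in the latter (log2 fold change -0.77). Of 5 markers of dedifferentiated melanoma, 4 reached that mean, and their summed level was 587 to 624 TPM in shCtrl and 662 to 677 TPM in shNFKBIZ libraries. This sum is mostly AXL and hides changes in both directions. WNT5A was at 134 ± 4.35 and 61.9 ± 1.54 TPM in shCtrl and shNFKBIZ cells (log2 fold change -1.20), SOX9 at 21.6 ± 0.729 and 55.1 ± 2.03 TPM (1.27), EGFR at 39.6 ± 1.72 and 66.2 ± 1.76 TPM (0.66) and AXL at 407 ± 24.2 and 486 ± 3.78 TPM (0.17; SD, n = 3), each with an adjusted p of at most 0.05 in edgeR. The summed level of 8 markers of immune, endothelial and epithelial cells was 0.873 to 1.56 TPM in shCtrl and 1.73 to 2.12 TPM in shNFKBIZ libraries, with PTPRC at no more than 0.0113 TPM and CD3E at 0. The keratin gene KRT14, the only one of these 8 with enough reads to be tested, was higher in shNFKBIZ cells, at 0.570 ± 0.228 and 1.59 ± 0.228 TPM (SD, n = 3; log2 fold change 1.37, adjusted p = 0.00128, edgeR). The part of these marker shifts in the results was not tested.

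Several of these genes are known NF-κB targets, and their promoter sequences are shown because the study concerns a co-regulator of NF-κB. RefSeq windows of 300 bases (GRCh38.p14, 250 bases before to 50 after each start) were searched on both strands for the 10-base κB consensus. All 10 genes matched an entry, with 19 windows in all because several genes have more than 1 start. The consensus was found in 6 of these windows, which belong to 5 genes, while 11.3% of all windows and 13.3% of all genes in the same collection hold it. The collection has 35116 windows for 27305 genes, so the 10 genes had more windows per gene. The shares per gene are therefore not directly comparable, and the 10 genes were chosen as NF-κB feedback and survival genes. The matches were in TNFAIP3, TNIP1, BIRC3, CYLD and CFLAR, and TNFAIP2, TNIP2, TRAF1, TRAF2 and BIRC2 held none in these windows. The matched stretches are given 5′ to 3′ on the strand of each gene, with the κB consensus match in capitals.
TNFAIP3: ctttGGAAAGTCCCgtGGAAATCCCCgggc
TNIP1: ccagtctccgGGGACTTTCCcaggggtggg
BIRC3, distal match: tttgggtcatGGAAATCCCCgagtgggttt
BIRC3, proximal match: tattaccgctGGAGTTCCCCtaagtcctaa
CYLD, upstream match: ttgacagagcGGAAAGTCCCttcggccggc
CYLD, match at a start: cccccccaccGGGGCTTCCCcatcccccga
CFLAR: cgcggggggcGGGGAATTCCgcagacagga

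TNFAIP3 thus has a close pair of matches, at chr6:137867188-137867217 on the plus strand, which begin 67 and 55 bases upstream of its RefSeq start. The TNIP1 match, at chr5:151081057-151081086 on the minus strand, begins 42 bases upstream. The BIRC3 matches lie farther out, at chr11:102317275-102317304 and chr11:102317339-102317368 on the plus strand, 199 and 135 bases upstream. The CYLD matches lie at chr16:50741887-50741916 and chr16:50742405-50742434 on the plus strand and belong to different starts of the gene, as the second begins at a start itself. The CFLAR match, at chr2:201118609-201118638 on the plus strand, begins 97 bases upstream of its first start. A match is a description of these letters and was not tested for binding.

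**Figure D1:**
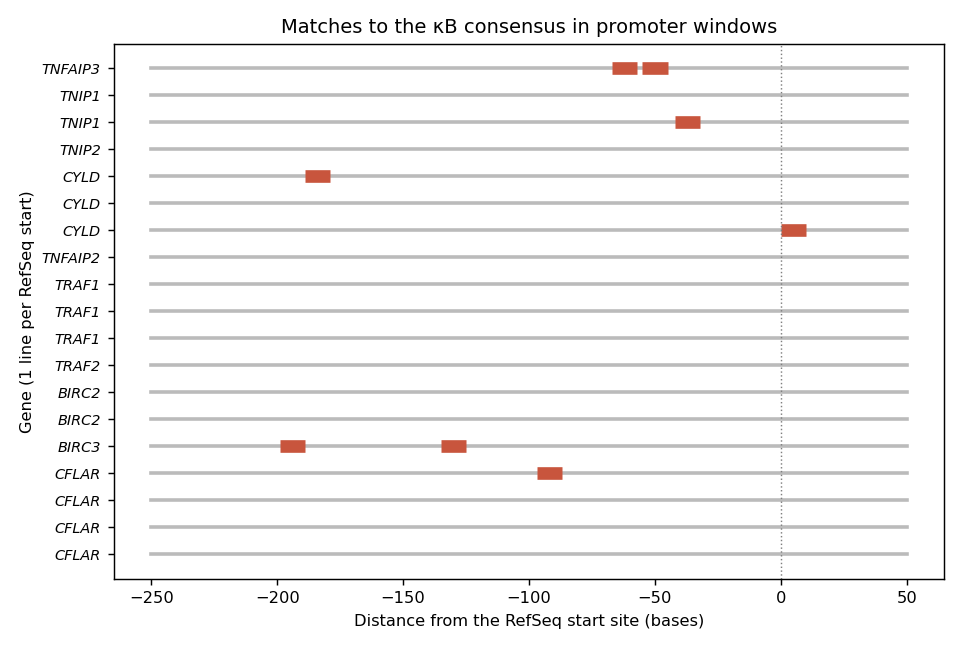
Positions of κB consensus matches (red blocks) in the 19 RefSeq promoter windows of the 10 genes, with distance from the RefSeq start in bases on the x axis and a grey line for each window. Matches appear in windows of TNFAIP3, TNIP1, CYLD, BIRC3 and CFLAR, and all but 1 of them lie upstream of the start.

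Nearly all of the group differed between the cell populations, but not in a common direction. In exon reads, 7 of the 10 genes were lower in shNFKBIZ cells at an adjusted p of at most 0.05 (edgeR quasi-likelihood test), namely TNFAIP3, TNFAIP2, TNIP1, TNIP2, BIRC3, CYLD and CFLAR. TRAF1 and BIRC2 were higher, and TRAF2 did not pass the test. Across 13843 genes tested, 65.3% passed in either direction, with 32.8% lower and 32.5% higher. A call by itself was thus common in these libraries. In bulk RNA, fewer cells expressing a gene and less RNA per cell cannot be told apart. The median log2 fold change of the 10 genes was -0.33, and that of all genes tested was 0.00431. For a comparison of single libraries, counts were scaled by library size and by the TMM factors of the edgeR fit (CPM). These scaled counts did not overlap between the groups for 9 of the 10 genes, compared with 68.7% of all genes.

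With the additional requirement of a 2-fold change, 4 of the 10 genes were past the threshold, of which TNIP1, TNFAIP2 and BIRC3 were lower and TRAF1 was higher. Of all genes tested, 8.96% passed this limit, 5.12% lower and 3.84% higher. The 4 genes lay close to the limit, with 95% intervals that reached below a 2-fold change for each of them. With library size alone as scaling, the 3 falls were short of 2-fold (log2 fold changes from -0.95 to -0.92) and only TRAF1 remained past it. This scaling also raised the median log2 fold change of all genes tested, from 0.00431 to 0.0937. All 9 genes kept their direction and an adjusted p of at most 0.05 under that scaling.

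**Figure D2:**
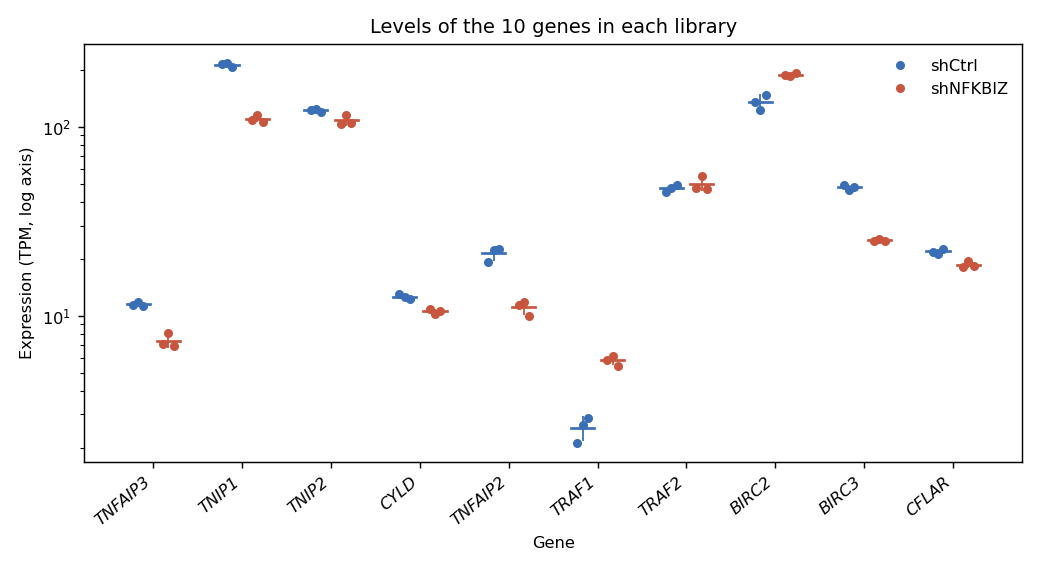
Expression of the 10 genes in TPM on a log axis, with a point for each library, a horizontal bar for the group mean and a vertical bar for the SD (3 libraries per group). The shNFKBIZ libraries lie below the shCtrl libraries for 7 genes and above them for TRAF1 and BIRC2, and they overlap for TRAF2.

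The A20 system was examined first. TNFAIP3 (ENSG00000118503, chr6:137867214-137883314, plus strand) was at 11.3, 11.8 and 11.3 TPM in the shCtrl libraries and at 7.05, 8.05 and 6.94 TPM in the shNFKBIZ libraries. The groups did not overlap, and the means were 11.5 ± 0.308 and 7.35 ± 0.611 TPM (SD, n = 3). The log2 fold change (log2FC) in exon reads was -0.73 (SE 0.0743, adjusted p = 1.84e-08, edgeR), a 1.66-fold lower expression. Fold changes are based on counts scaled with TMM factors, which were 0.964 to 0.979 in shCtrl and 1.02 to 1.04 in shNFKBIZ libraries, and ratios of TPM are for that reason somewhat less negative.

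Among its partners, TNIP1 (ENSG00000145901, chr5:151029945-151093577, minus strand) was the most abundant of the 10 genes in control cells and had a fall close in size to those of TNFAIP2 and BIRC3, with overlapping intervals. It was at 215, 216 and 208 TPM in shCtrl and at 108, 115 and 106 TPM in shNFKBIZ libraries, and the groups were far apart. The log2FC was -1.04 (SE 0.0369, 95% interval -1.11 to -0.96, adjusted p = 3.28e-16, edgeR). TNIP2 (ENSG00000168884, chr4:2741648-2756342, minus strand) fell much less, the means being 122 ± 2.69 and 108 ± 6.70 TPM (SD, n = 3) and the log2FC -0.26 (SE 0.0446, adjusted p = 2.63e-05, edgeR). The highest shNFKBIZ library was at 116 TPM and the lowest shCtrl library at 119 TPM, so that the groups were separated by a small margin.

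CYLD (ENSG00000083799, chr16:50742050-50801935, plus strand), the deubiquitinase that acts apart from A20, was at 13.0019, 12.6 and 12.3 TPM in shCtrl and at 10.9, 10.2 and 10.5 TPM in shNFKBIZ libraries. The groups did not overlap, and the log2FC was -0.34 (SE 0.0538, adjusted p = 9.65e-06, edgeR). TNFAIP2 (ENSG00000185215, chr14:103121476-103137439, plus strand) was at 19.2, 22.2 and 22.6 TPM in shCtrl and at 11.4, 11.8 and 9.97 TPM in shNFKBIZ libraries. Its log2FC of -1.03 (SE 0.0736, 95% interval -1.18 to -0.88, adjusted p = 5.46e-11, edgeR) was past the 2-fold limit, but it was short of it without shCtrl replicate 2 (-0.99) and without shNFKBIZ replicate 3 (-0.97).

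Next, the adaptors and ligases of the TNF receptor complex were compared. TRAF1 (ENSG00000056558, chr9:120902393-120929173, minus strand), which is itself known as an NF-κB-induced gene, was higher in shNFKBIZ cells whereas TNFAIP3, TNIP1 and BIRC3 were lower. It was the least abundant of the 10 genes, with 59, 76 and 74 exon reads in the shCtrl libraries and 152, 158 and 145 in the shNFKBIZ libraries. In TPM the values were 2.12, 2.64 and 2.87 against 5.80, 6.14 and 5.45, without overlap. The log2FC was 1.11 (SE 0.131, 95% interval 0.83 to 1.38, adjusted p = 1.68e-07, edgeR), which corresponds to a 2.15-fold higher expression. It was 0.99 without shCtrl replicate 1, the lowest of the control libraries. Exon-exon reads, which span a splice junction, were 5, 14 and 16 in shCtrl and 32, 18 and 27 in shNFKBIZ libraries and also did not overlap as raw counts. TRAF2 (ENSG00000127191, chr9:136881912-136926607, plus strand) was at 45.4, 47.4 and 49.0 TPM in shCtrl and at 47.7, 54.6 and 46.9 TPM in shNFKBIZ libraries, with overlapping groups. Its log2FC in exon reads was -0.00940, with a 95% interval from -0.12 to 0.10 (adjusted p = 0.885, edgeR).

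BIRC2 and BIRC3 are neighbours on chromosome 11, and their transcripts changed in opposite directions. BIRC3 (ENSG00000023445, chr11:102317450-102339403, plus strand), which encodes the NF-κB-inducible cIAP2, was at 49.0, 46.2 and 47.9 TPM in shCtrl and at 24.7, 25.5 and 24.8 TPM in shNFKBIZ libraries. All shNFKBIZ libraries were close to each other and far below the controls, with a log2FC of -1.01 (SE 0.0427, 95% interval -1.10 to -0.92, adjusted p = 6.19e-15, edgeR). Without shCtrl replicate 1 it was -0.99. BIRC2 (ENSG00000110330, chr11:102347211-102378670, plus strand), which encodes cIAP1, was at 136, 122 and 148 TPM in shCtrl and at 187, 185 and 192 TPM in shNFKBIZ libraries. Every shNFKBIZ library was higher than every control library, and the log2FC was 0.39 (SE 0.0491, adjusted p = 3.51e-06, edgeR). The paralogs could be told apart, since every one of the 10 genes had at least 98.9% unique exon reads, the lowest share being that of CFLAR.

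CFLAR (ENSG00000003402, chr2:201116154-201176687, plus strand) was at 21.7, 21.2 and 22.6 TPM in shCtrl and at 18.0, 19.4 and 18.2 TPM in shNFKBIZ libraries. The groups were separate, and the log2FC was -0.32 (SE 0.0371, adjusted p = 1.28e-07, edgeR). The long and short c-FLIP forms are not resolved by a count per gene. Of the annotated neighbours, CFLAR-AS1 shares 777 exon bases with CFLAR on the opposite strand and had 10 to 16 exon reads per library. The unnamed transcript ENSG00000234431 shares 445 bases and had 8 to 26 exon reads, compared with 2371 to 3069 for CFLAR. The other genes that overlap a member in the annotation (WAKMAR2 with TNFAIP3, LINC00677 and ENSG00000289917 with TNFAIP2, ENSG00000289970 with TNIP1, MIR4479 with TRAF2, ENSG00000288528 with BIRC3, CYLD-AS1, MIR3181 and ENSG00000260616 with CYLD, and RNU7-45P with CFLAR) had at most 7 exon reads in a library. The counts do not use strand, so that reads of these pairs cannot be told apart where exons overlap.

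To compare related genes independently of scaling between libraries, the ratio of their TPM was taken within each library. BIRC3 relative to BIRC2 was 0.361, 0.379 and 0.323 in shCtrl and 0.132, 0.138 and 0.130 in shNFKBIZ libraries, a 2.65-fold lower ratio. The lowest control ratio was far above the highest shNFKBIZ ratio. TRAF1 relative to TRAF2 was 0.0537 ± 0.00616 in shCtrl and 0.117 ± 0.00466 in shNFKBIZ libraries (SD, n = 3), a 2.18-fold higher ratio. TNIP1 relative to TNIP2 was 1.75, 1.74 and 1.74 in shCtrl and 1.05, 0.991 and 1.02 in shNFKBIZ libraries, near 1 in the latter. TNFAIP3 relative to CYLD was 0.911 ± 0.0349 and 0.698 ± 0.0781 (SD, n = 3), the smallest of the shifts. None of the 4 ratios overlapped between the groups, and each had p = 0.1 in an exact two-sided permutation test, which is the smallest value that 3 against 3 libraries allow and remains 0.1 after adjustment over the 4 ratios.

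**Figure D3:**
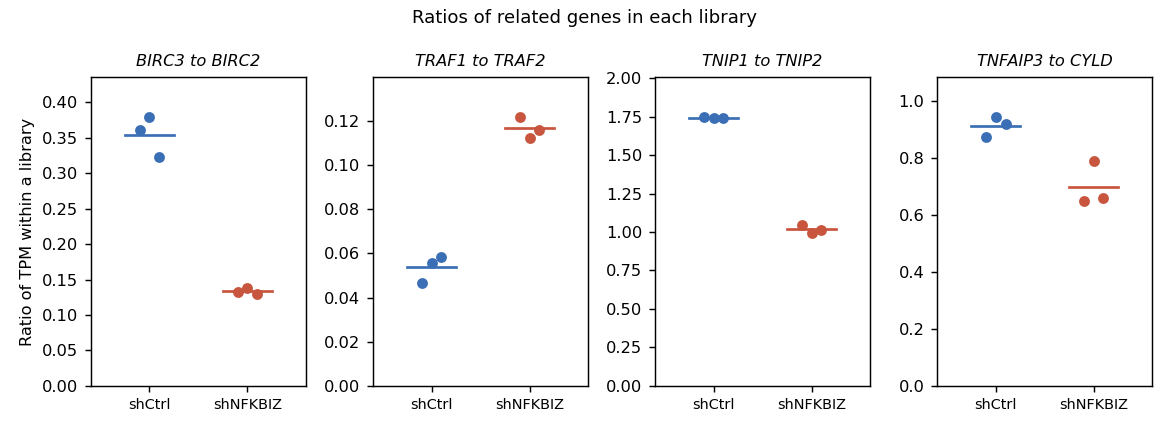
Ratio of TPM within each library for 4 pairs of related genes, each panel with its own linear axis from 0, with a point per library and a bar for the group mean. In shNFKBIZ libraries the ratio of BIRC3 to BIRC2 is lower (0.130 to 0.138 against 0.323 to 0.379), and so are those of TNIP1 to TNIP2 and TNFAIP3 to CYLD, while that of TRAF1 to TRAF2 is higher.

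These shifts also altered the order of the levels. The order within a group depends on the annotated exon lengths, which are the same in both groups. In shCtrl cells the order by mean TPM was TNIP1, BIRC2, TNIP2, BIRC3, TRAF2, CFLAR, TNFAIP2, CYLD, TNFAIP3 and TRAF1. Library ranges overlapped between BIRC2 and TNIP2, between BIRC3 and TRAF2, and between CFLAR and TNFAIP2, so that these neighbours did not differ beyond their spread. In shNFKBIZ cells BIRC2 came first, at 185 to 192 TPM, followed by TNIP1 and TNIP2 with overlapping ranges, and TRAF2 preceded BIRC3. TNFAIP2 and CYLD had overlapping ranges in shNFKBIZ cells, at 9.97 to 11.8 and 10.2 to 10.9 TPM, whereas TNFAIP2 was above CYLD in control cells. TRAF1 remained last in both groups.

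Finally, intron reads were examined, which derive mostly from unspliced transcripts. In these, 6 of 9 genes tested differed at an adjusted p of at most 0.05 (edgeR), compared with 38.8% of 12119 genes. TNIP1, TNFAIP2, BIRC3, TNIP2 and TRAF2 were lower, against 19.5% of all genes, and BIRC2 was higher, against 19.3%. TNFAIP3 had too few intron reads to be tested with all libraries, with 9, 12 and 14 in shCtrl and 9, 6 and 3 in shNFKBIZ libraries, where the ranges met. The ratio of its summed intron reads (35 and 18), each relative to all intron reads, was 0.503, with an exact 95% interval from 0.268 to 0.912 that covers counting error only. It entered the test when 1 of 4 libraries was left out, with log2 fold changes from -1.46 to -0.72, and was called without shNFKBIZ replicate 1 (-1.46, adjusted p = 0.0266, edgeR) but not in the other 3 settings. Intron reads made up 7.16% to 7.46% of gene reads in shCtrl and 7.63% to 8.15% in shNFKBIZ libraries, and the part of this difference in the intron results was not tested.

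For TNIP1, BIRC3 and BIRC2, the direction was the same in both kinds of reads. Intron reads of TNIP1 were 446, 498 and 491 in shCtrl and 195, 223 and 206 in shNFKBIZ libraries, far apart, with a log2FC of -1.29 (SE 0.0777, adjusted p = 2.30e-16, edgeR). Those of BIRC3 were 43, 52 and 44 against 23, 27 and 24 (log2FC -0.996, SE 0.204, adjusted p = 0.000158, edgeR), and those of BIRC2 were 109, 124 and 138 against 185, 184 and 204 (0.54, SE 0.108, adjusted p = 0.000129, edgeR). The neighbouring IAP genes thus diverged in intron as well as in exon reads. TNFAIP2 had few intron reads (21, 24 and 22 against 12, 12 and 14), with a log2FC of -0.90 (SE 0.289, adjusted p = 0.0125, edgeR). It was no longer called by DESeq2 (adjusted p = 0.103).

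Whether exon and intron reads changed unequally was then tested for each gene as an interaction, which 28.9% of 11025 genes passed. Of the 9 genes tested, 3 passed, namely TRAF2, CFLAR and TNIP1. TRAF2 had the largest difference of these 3, since its intron reads fell from 388, 442 and 405 to 272, 366 and 318 (log2FC -0.46, SE 0.0785, adjusted p = 1.10e-05, edgeR) while its exon reads did not pass the test. The difference of exon minus intron log2 change was 0.47 (SE 0.0845, adjusted p = 4.76e-06, edgeR). CFLAR showed the opposite pattern, with lower exon reads and intron reads of 375, 349 and 313 in shCtrl and 354, 420 and 369 in shNFKBIZ libraries, which overlapped. Its intron log2FC was 0.05 (95% interval -0.11 to 0.20, adjusted p = 0.649, edgeR), and the difference of exon minus intron change was -0.35 (SE 0.0761, adjusted p = 0.000111, edgeR). TNIP1 had a smaller difference of 0.27 (SE 0.0846, adjusted p = 0.0104, edgeR), since its intron reads fell by more than its exon reads. This difference was lost without shCtrl replicate 3 (0.20, adjusted p = 0.0651, edgeR) and without shNFKBIZ replicate 1 (0.25, adjusted p = 0.0563, edgeR).

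For the remaining genes the difference did not pass the test. That of TRAF1 was 0.57 (SE 0.269, adjusted p = 0.103, edgeR), larger than that of TRAF2 but with a wider error. TRAF1 intron reads were 24, 21 and 23 in shCtrl and 39, 38 and 29 in shNFKBIZ libraries, without overlap, with a log2FC of 0.55 (95% interval 0.08 to 1.01, adjusted p = 0.0549, edgeR). This intron change passed in 3 of 11 alternatives. These were without shNFKBIZ replicate 3 (0.67, adjusted p = 0.0365, edgeR), with library size alone (0.60, adjusted p = 0.0334, edgeR) and with unique reads (0.55, adjusted p = 0.0493, edgeR). In the other 8 it did not pass, such as with DESeq2 (0.55, adjusted p = 0.234). Intron reads of TNIP2 were lower by a log2FC of -0.28 (SE 0.109, adjusted p = 0.0390, edgeR). That call was lost without shCtrl replicate 1 (-0.25), shCtrl replicate 2 (-0.30), shNFKBIZ replicate 1 (-0.26) or shNFKBIZ replicate 3 (-0.23), with library size alone (-0.22) and with DESeq2 (-0.28). CYLD had 46, 27 and 53 intron reads against 52, 32 and 35, with a log2FC of -0.17 and a wide 95% interval from -0.66 to 0.32 (adjusted p = 0.603, edgeR), which includes the exon value of -0.34.

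**Figure D4:**
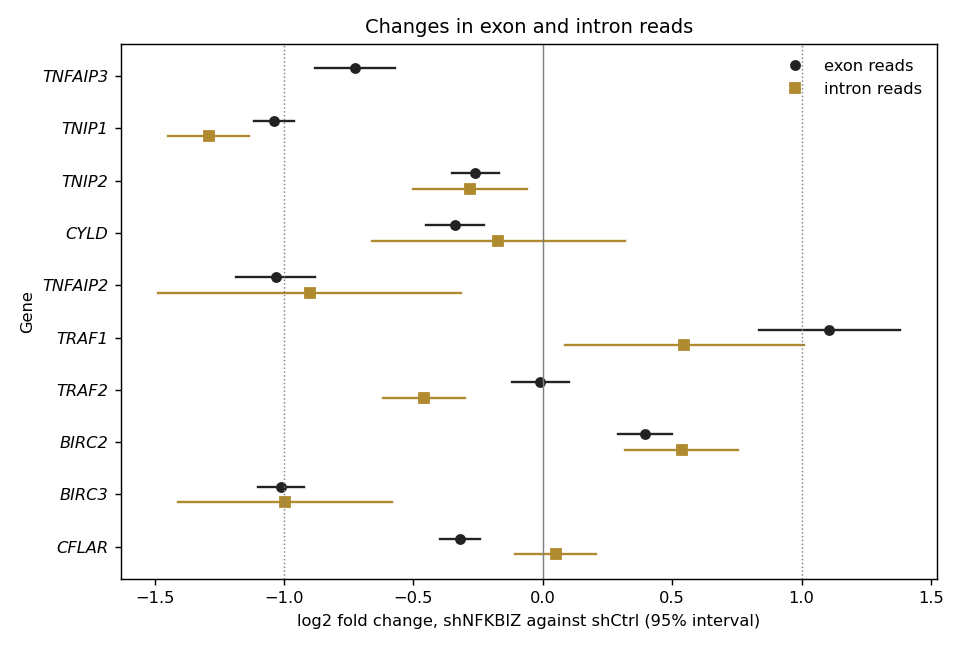
Log2 fold change (log2FC) of shNFKBIZ against shCtrl cells in exon reads (black circles) and intron reads (ochre squares), with 95% intervals from the edgeR fit and dotted lines at a 2-fold change; TNFAIP3 has no intron estimate. The intervals of both measures overlap for BIRC3, TNIP2 and TNFAIP2, and they are apart for TRAF2, CFLAR and TNIP1.

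The change in these 10 genes was set beside that of related genes. The lists were chosen with earlier results of these data known, so their counts only describe the genes listed. Among 15 other NF-κB-induced feedback and survival genes, 11 were lower, 1 was higher and 3 did not pass the test, with a median log2FC of -0.77 against 0.00431 for all genes. Of all genes tested, 32.8% were lower. With library size alone 10 of them were lower. The gene that was higher was BCL2A1, at 125 ± 10.5 TPM in shCtrl and 167 ± 6.22 TPM in shNFKBIZ cells (SD, n = 3). Its log2FC was 0.34 (SE 0.0561, adjusted p = 1.44e-05, edgeR). In this list, 6 genes were past the 2-fold limit, all lower in shNFKBIZ cells, compared with 5.12% of all genes. BCL3, an atypical IκB protein, had a log2FC of -2.50 (SE 0.0829), the mitochondrial superoxide dismutase SOD2 one of -2.03 (SE 0.0368), and the early response gene IER3 one of -1.86 (SE 0.0385). The kinases PLK2 (-1.70, SE 0.0357) and PIM1 (-1.15, SE 0.0812) and the NF-κB subunit gene NFKB2 (-1.01, SE 0.0474) were also lower, and NFKB2 was short of the limit with library size alone, which left 5 genes past it. NFKBIA, which encodes IκBα and is the classical feedback inhibitor, was at 49.0 ± 2.78 TPM in shCtrl and 30.4 ± 1.38 TPM in shNFKBIZ cells (SD, n = 3), a log2FC of -0.77 (SE 0.0554, adjusted p = 5.61e-11, edgeR).

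Components of the TNF receptor complex were called about as often as all genes. Of 17 tested among 19 listed, 4 were higher, 7 were lower and 6 did not pass the test, where 65.3% of all genes passed. The median log2FC of the list was -0.07, against 0.00431 for all genes. With library size alone the list median was 0.02 (7 higher and 6 lower), while the median of all genes rose to 0.0937. The kinase gene MAP3K7, which encodes TAK1, was the only gene of this list past the 2-fold limit, with a log2FC of -1.02 (SE 0.0426, adjusted p = 5.46e-15, edgeR). It fell from 39.8 ± 1.59 to 20.8 ± 0.546 TPM (SD, n = 3), and it was short of 2-fold with library size alone. TRAF3 (0.20, SE 0.0379) and the NF-κB-inducing kinase gene MAP3K14 (0.30, SE 0.0630), whose products act with TRAF2 and the cIAPs in the non-canonical pathway, were slightly higher. RIPK1, which encodes the kinase ubiquitinated by the cIAPs, had a log2FC of 0.02 (adjusted p = 0.739, edgeR).

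Of 11 deubiquitinases and A20 partners, 3 were higher, 5 were lower and 3 did not pass the test, again against 65.3% of all genes. Their median log2FC was -0.07. With library size alone it was 0.02 (3 higher and 4 lower), where the median of all genes was 0.0937. None was past the 2-fold limit. TAX1BP1, an adaptor through which A20 meets its substrates, was lower (-0.72, SE 0.0371, adjusted p = 2.05e-13, edgeR). The other inhibitor of apoptosis (IAP) genes and IAP antagonists included 6 tested genes, of which 5 were higher and 1 was lower, against 32.5% and 32.8% of all genes, with a median log2FC of 0.26. XIAP had a log2FC of 0.23 (SE 0.0384, adjusted p = 1.85e-05, edgeR). These lists were described by counts and medians and were not tested as sets.

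**Figure D5:**
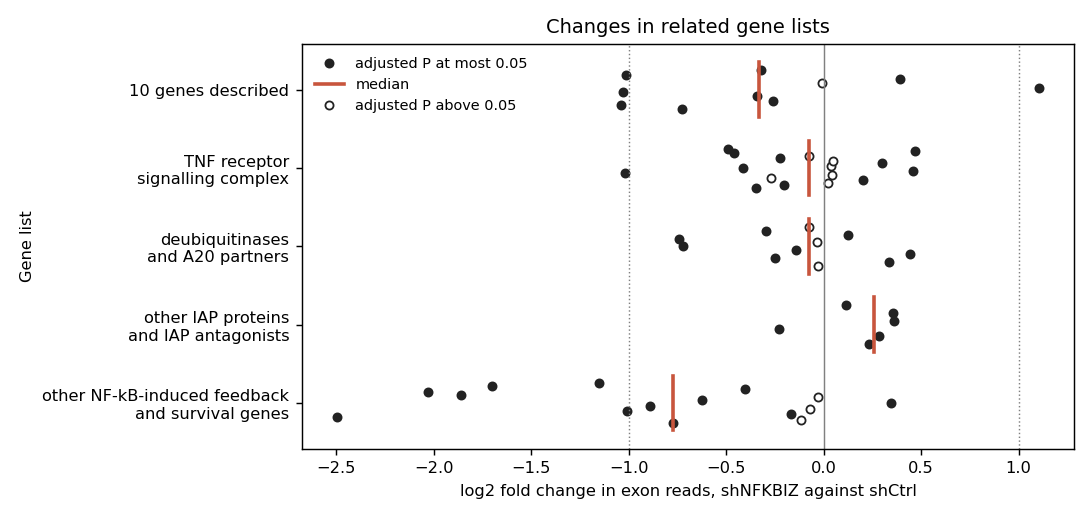
Log2 fold change in exon reads of each tested gene in 5 lists, filled where the adjusted p was at most 0.05 and open where not, with a red bar for the median and dotted lines at a 2-fold change. The median is -0.77 for the other NF-κB-induced feedback and survival genes and -0.33 for the 10 genes described. It is 0.26 for the list that holds both other IAP genes and IAP antagonists.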

How the data were processed

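Each library was assigned by its sample title. According to the study's methods, mapping to hg38 was done in CLC Genomics Workbench with its default settings, without strand. Per gene, the authors deposited counts of exon, intron and exon-exon reads. TPM, calculated from exon counts per exon length, differed from the deposited TPM by at most 4.98e-07. Coordinates are those of the files, and for 9 of the 10 genes they were the same in GENCODE release 44.

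Counts were filtered with filterByExpr, scaled with TMM factors and tested with the edgeR 4.0.16 quasi-likelihood test (robust, two-sided, R 4.3.3), with Benjamini-Hochberg adjustment over all genes tested. The threshold combined an adjusted p of at most 0.05 with a 2-fold change. The standard error is the absolute log2 fold change divided by the square root of F. Exon and intron counts were compared in 1 model with library blocks, again with edgeR. Both fits were tested on simulated data. The genes named are the 10 members, NFKBIZ, genes that overlap a member, and of the lists all genes past the threshold plus XIAP, TRAF3, RIPK1, NFKBIA, TAX1BP1 and MAP3K14. BCL2A1 and the markers MITF, SOX10, MLANA, AXL, EGFR, PTPRC and CD3E were named outside this rule, after their values were seen. The members and lists were chosen with earlier results of these data known. The edgeR p-values weigh the difference between groups against the spread between these libraries, estimated with information shared across genes. Those of the ratios come from reassigning the libraries to the groups. Alternatives were other scaling, filters, reads, DESeq2 1.42.0, a replicate block and leaving out each library.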

Additional observations from a re-analysis of the deposited data

How the results depend on the processing

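All 9 genes called on exon reads kept their direction and an adjusted p of at most 0.05 under the 15 alternatives fitted. The count past the 2-fold limit was 4, and it was 1 with library size alone and 1 with exon-exon reads, an alternative chosen after seeing the data. In both settings TRAF1 was the gene left. Leaving out 1 library gave 2 to 4 genes, with 2 without shCtrl replicate 1, where BIRC3 and TRAF1 were short of it. Total gene reads left out TRAF1 (0.99). A required difference in mean TPM above 4 left 3 genes and also removed TRAF1, with means of 2.54 TPM in shCtrl and 5.79 TPM in shNFKBIZ cells. The study's methods list a difference cut-off of 4 beside the 2-fold limit, with no unit given. The intron count was 6 and ranged from 4 with DESeq2 to 7 with unique reads, and the count of unequal exon and intron changes was 3, or 2 without shCtrl replicate 3 or without shNFKBIZ replicate 1. Over all genes tested, deviations of same-numbered libraries from their group means were only weakly correlated (0.0207, 0.0561 and 0.0288). A fit with a replicate block gave 4 genes past the limit and 9 called. Of all genes, it called 9303, against 9039 without the block. TNFAIP3 had too few intron reads for a test with all libraries.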
